A study of Rattus norvegicus with 24 samples.

Results

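The genes described here are 21 genes of axon guidance, ephrin signalling and cadherin-type adhesion in cultured rat oligodendrocyte precursor cells (OPCs) and the oligodendrocytes (OLs) that differentiate from them. They were chosen by symbol, from a list of the study that pairs 1999 gene identifiers with symbols in the copy used here: a member is any gene whose symbol begins with Sema, Plxn, Nrp, Epha, Ephb, Efna, Efnb, Robo, Slit, Ntn, Unc5, Pcdh or Cdh and a digit. The count files of 22 libraries hold 32883 gene identifiers, and 2107 of them have a symbol in the sources used here. The list holds genes that were lower in DMSO-treated OLs than in DMSO-treated OPCs, so the low level of every member in those OLs is how it was chosen and not a result. The members are 5 semaphorins (Sema3a, Sema3c, Sema3e, Sema3f and Sema4f), 4 semaphorin receptors (Nrp2, Plxna2, Plxna4 and Plxnc1), 3 genes of the ephrin system (Efnb2, Epha2 and Epha5), the Slit receptor Robo2, the netrin Ntn4, 5 cadherin-type genes (Cdh23, Pcdh18, Pcdh19, Pcdh20 and Pcdhb11), and Slitrk1 and Slitrk2. The last pair matched through the letters Slit alone and are synaptic adhesion proteins rather than Slit ligands.

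Guidance cues are secreted or membrane-bound proteins that attract or repel a moving cell or growth cone. Class 3 semaphorins are secreted and act through a receptor complex in which a neuropilin binds the ligand and a plexin passes the signal on to the cytoskeleton, ephrins and Eph receptors signal in both directions between touching cells, and protocadherins and cadherins hold cells together through calcium-dependent contacts. In the oligodendrocyte lineage these families are known for steering the migration of OPCs, and semaphorins and ephrins also for inhibiting their differentiation.

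Gene counts were measured by RNA sequencing in 6 conditions with 4 libraries each. OPCs came from the cerebral cortex of newborn Sprague Dawley rat pups, were enriched by shaking them off mixed glial cultures, and were grown for 24 hours in proliferation medium with no addition (UT), with the solvent DMSO at 0.04%, or with 8 µM dolutegravir (DTG), an inhibitor of the HIV integrase. OLs had the same 24 hours and then 72 hours of differentiation medium under the same 3 treatments. Replicates were cultures from different litters, and no group carried a genetic change. The libraries held 13241279 to 18499994 gene counts, and levels are given as CPM, a gene's counts relative to the size of its library after scaling the 24 libraries to each other with TMM, a method that assumes most genes do not change. In bulk RNA, fewer cells that express a gene and less RNA per cell cannot be told apart.

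Some libraries stand apart and bear on what follows. The UT libraries of replicate 3 were counted on another gene annotation and apparently another genome build. In that annotation Efnb2 has no identifier, and only 2 of the 20 other members have the same exon length. Exon lengths there ran from 0.57 times (Sema3f) to 2.98 times (Slitrk2) those in the other files. CPM are not divided by length, so the CPM of these 2 libraries and ranges that include them are not on an equal footing. Comparisons with UT cells therefore cover 20 members, and their counts and medians are given also without replicate 3, where 21 can be tested. The library labelled DTG-treated OPC replicate 2 did not deviate from its group mean with the other OPC libraries of its number (r = -0.16 with DMSO and -0.23 with UT across genes), but with replicate 3 (r = 0.83 with DMSO and 0.57 with UT), and counts and medians that use it are given also without it. Stage markers have a symbol here only through lists of the study that were drawn from these libraries, so they are no independent check of the labels. Of the 9 OPC markers listed 2, Pdgfra and Cspg4, have one through the list of genes lower in DMSO-treated OLs and summed to 561 to 1195 CPM in OPCs and 136 to 379 CPM in OLs, and 3 of 9 OL markers, Mbp, Mog and Enpp6, have one through a list of genes that differed between DMSO-treated and DTG-treated OLs and summed to 112 to 356 CPM in OPCs and 1806 to 11955 CPM in OLs.

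The promoters of 4 members are shown as examples of the semaphorins and of the semaphorin receptors described below. Each sequence is the 250 bases before the gene's start in RefSeq, genome build GRCr8, printed 5′ to 3′ in the direction of the gene, and capitals mark the letters GGGCGG or their reverse complement CCGCCC, the core of a GC box.

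Sema3c (chr4:18699628-18699877, minus strand): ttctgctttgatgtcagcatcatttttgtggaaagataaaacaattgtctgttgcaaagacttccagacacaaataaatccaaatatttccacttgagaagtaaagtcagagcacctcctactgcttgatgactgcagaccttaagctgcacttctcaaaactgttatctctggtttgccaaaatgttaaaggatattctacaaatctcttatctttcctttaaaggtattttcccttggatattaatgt

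Sema3e (chr4:21510375-21510624, minus strand): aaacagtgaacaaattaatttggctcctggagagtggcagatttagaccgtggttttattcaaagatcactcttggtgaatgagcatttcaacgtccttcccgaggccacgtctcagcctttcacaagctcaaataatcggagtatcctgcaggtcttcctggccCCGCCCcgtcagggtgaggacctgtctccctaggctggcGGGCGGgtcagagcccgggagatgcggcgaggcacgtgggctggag

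Nrp2 (chr9:71617004-71617253, plus strand): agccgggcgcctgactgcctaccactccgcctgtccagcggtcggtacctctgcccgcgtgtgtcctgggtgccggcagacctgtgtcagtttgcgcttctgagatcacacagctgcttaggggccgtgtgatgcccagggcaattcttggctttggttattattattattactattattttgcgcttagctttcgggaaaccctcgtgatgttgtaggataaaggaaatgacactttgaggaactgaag

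Plxna2 (chr13:108691280-108691529, plus strand): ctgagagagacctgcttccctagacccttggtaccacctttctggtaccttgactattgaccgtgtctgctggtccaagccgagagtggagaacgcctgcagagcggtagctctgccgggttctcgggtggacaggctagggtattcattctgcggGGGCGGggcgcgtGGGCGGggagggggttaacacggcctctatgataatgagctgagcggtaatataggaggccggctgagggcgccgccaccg

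A RefSeq promoter was matched by symbol for 16 of the 21 members. The ligands Sema3c and Sema3e, both on chromosome 4, differ in composition: 35.2% of the bases before Sema3c are G or C, against 55.6% before Sema3e, and Sema3c has 0 CG dinucleotides there while Sema3e has 13. Over the matched members the share of G and C runs from 35.2% to 80.4% with a median of 58.2%, and the median of 33469 rat promoters is 51.2%. Among 5 motifs searched on both strands, GGGCGG was found in 8 of the 16 (30.5% of all promoters hold it), CCAAT in 4 (34.0%), the E-box CAGCTG in 4, namely Nrp2, Robo2, Efnb2 and Slitrk2 (11.97%), ACAATG in 1, Plxnc1 (11.1%), and the TATA box TATAAA in 0 (12.9%). These are matches of letters in a window and say nothing about binding.

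To compare the genes with each other, levels were divided by the exon length in kilobases, using the libraries counted on 1 annotation. In DTG-treated OPCs the semaphorin receptor Plxna2 had 16.8 ± 1.24 CPM per kilobase (SD, n = 4) and the secreted netrin Ntn4 16.1 ± 2.89, and these neighbours do not differ beyond their spread. Slitrk2 with 11.9 ± 4.01 and Sema3e with 11.1 ± 5.15 CPM per kilobase came next, and their spreads overlap too. At the low end stood Sema3f with 0.641 ± 0.386, Plxna4 with 1.17 ± 0.326 and Sema4f with 1.19 ± 0.573 CPM per kilobase. In UT OPCs the highest pair was again Plxna2 with 13.9 ± 2.68 and Ntn4 with 13.4 ± 4.47 CPM per kilobase (n = 3). In DTG-treated OLs Ntn4 led with 7.08 ± 1.12 CPM per kilobase, ahead of Plxna2 with 4.60 ± 1.23, Slitrk2 with 3.62 ± 0.639 and Slitrk1 with 2.95 ± 1.17. Of the members' summed level per kilobase, Plxna2 made up 14.0% and Ntn4 13.4% in DTG-treated OPCs, against 13.1% and 20.2% in DTG-treated OLs.

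**Figure D1:**
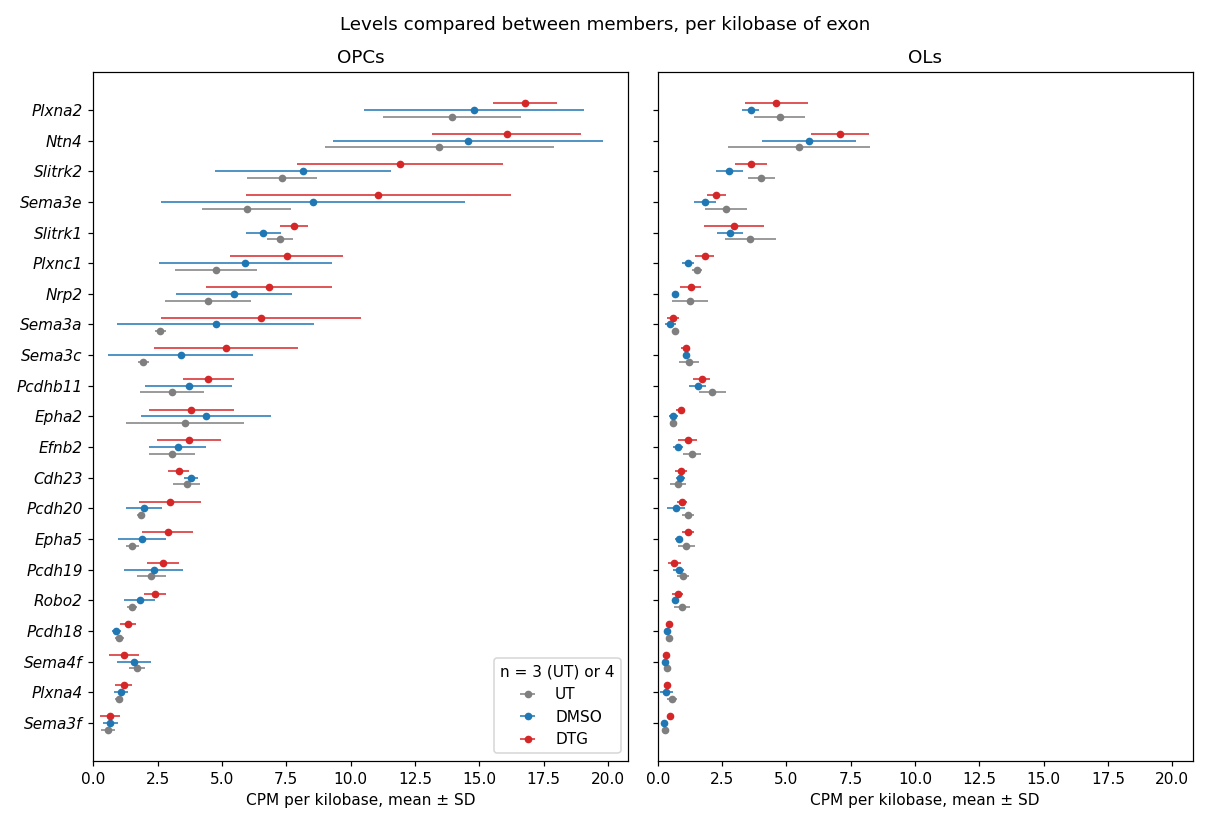
Mean level of each member per kilobase of exon (x axis, CPM per kilobase, bars are SD) in OPCs on the left and OLs on the right, for untreated (n = 3), DMSO-treated and DTG-treated cells (n = 4). Plxna2 and Ntn4 stand highest in OPCs, at 16.8 and 16.1 CPM per kilobase under DTG, and the points of OLs lie lower.

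Whether these genes also fall on differentiation in libraries that did not choose them was asked in UT and in DTG-treated cells. All 4 semaphorin receptors passed the test as lower in OLs in both, and the members that did not pass were Sema3f under DTG and Epha5 and Pcdhb11 in UT cells. Calls come from edgeR's quasi-likelihood test over all genes and need a change beyond 1 on the log2 scale together with an adjusted p-value below 0.05. Under DTG 20 of 21 members were called lower, where 22.8% of the 13171 genes tested were called lower, and the members' median log2 fold change was -1.72 against -0.11 over all genes. Without treatment 18 of 20 members were called lower, where 13.4% of 12158 genes were, with a median of -1.41 against -0.10 over all genes, and the median was -1.20 over 21 members without replicate 3. The members were chosen for being lower in OLs in DMSO-treated cells of the same litters, so these counts repeat a known direction in other libraries of the same cultures. Low counts removed no member in either comparison, and Efnb2 is absent from the UT count because of its missing identifier.

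**Figure D2:**
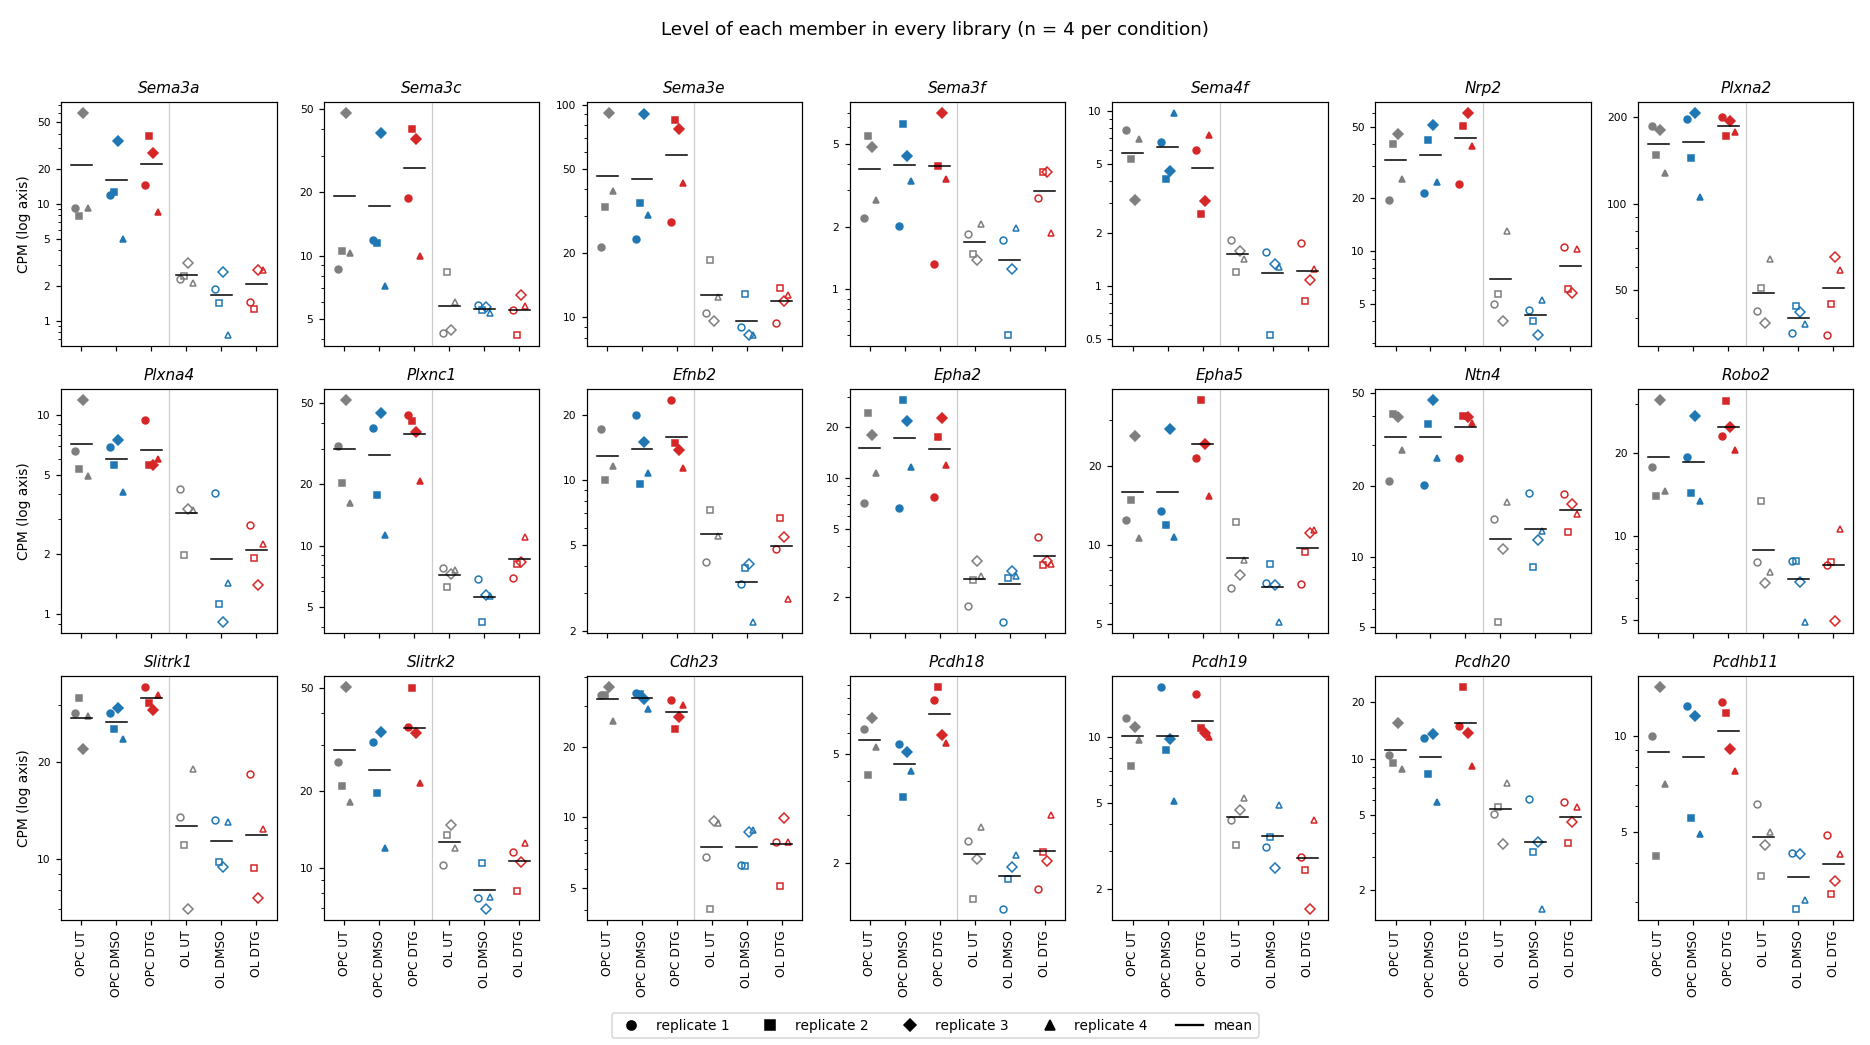
Level of each of the 21 members in every library (CPM, log axis), by condition, with the replicate number as the marker shape and the mean as a bar (n = 4, and 3 for Efnb2 in untreated cells). Filled points are OPCs and open points OLs, and Sema3a, for example, reaches at most 3.10 CPM in OLs and at least 5.00 CPM in OPCs.

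Among the ligands, Sema3a, a secreted repellent, fell most on differentiation. Its level was 14.6, 38.1, 27.1 and 8.59 CPM in DTG-treated OPCs of replicates 1 to 4 and 1.45, 1.27, 2.72 and 2.75 CPM in the OLs. In UT cells it was 9.24, 7.96, 59.7 and 9.21 CPM in OPCs and 2.27, 2.42, 3.10 and 2.12 CPM in OLs. Every OL library lay below every OPC library, while the OPC libraries spread widely, with replicate 3 far above the others in UT cells. The log2 fold change was -3.41 ± 0.49 (SE) under DTG (edgeR adjusted p = 0.000160) and -3.14 ± 0.72 in UT cells (edgeR adjusted p = 0.00820). Without replicate 3 in both stages the change in UT cells was -1.964 ± 0.25, and the gene was still called. DESeq2 gave Sema3a no adjusted p-value in UT cells.

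Sema3e, a class 3 semaphorin whose main receptor is a plexin, was the semaphorin with the highest level per kilobase in DTG-treated OPCs. Its level was 28.2, 84.8, 76.5 and 42.7 CPM in DTG-treated OPCs and 9.39, 13.7, 11.9 and 12.7 CPM in DTG-treated OLs. In UT cells the values were 21.4, 32.9, 91.1 and 39.3 CPM in OPCs and 10.5, 18.6, 9.64 and 12.5 CPM in OLs. The stages did not overlap under either treatment, and the log2 fold change was -2.29 ± 0.33 under DTG (edgeR adjusted p = 0.000157) and -1.87 ± 0.44 in UT cells (edgeR adjusted p = 0.00899). Without replicate 3 in both stages the change in UT cells was -1.18 ± 0.28, and the gene was still called.

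Sema3c, another secreted semaphorin, ranged from 7.13 to 47.7 CPM over the 12 OPC libraries and 4.19 to 8.30 CPM over the 12 OL libraries, and it changed by -2.26 ± 0.40 on the log2 scale under DTG and -1.78 ± 0.58 in UT cells. Its call in UT cells was lost without replicate 3: without that replicate in both stages the log2 fold change was -0.68 ± 0.27 and the gene was not called. Sema4f, a membrane-bound semaphorin, ranged from 2.58 to 9.70 CPM in OPCs and 0.528 to 1.84 CPM in OLs, with log2 fold changes of -1.93 ± 0.42 and -1.92 ± 0.35. Within the OPCs its lowest levels were in UT replicate 3 and in DTG-treated replicates 2 and 3.

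Sema3f, a secreted semaphorin that binds Nrp2, was the exception under DTG. Its level was 1.32, 3.89, 7.01 and 3.40 CPM in DTG-treated OPCs and 2.75, 3.64, 3.66 and 1.87 CPM in DTG-treated OLs, and the stages overlapped, with the lowest value of all 8 libraries in an OPC library. The log2 fold change was -0.41 ± 0.44 (edgeR adjusted p = 0.429). In UT cells it was 2.19, 5.44, 4.84 and 2.68 CPM in OPCs and 1.84, 1.47, 1.38 and 2.06 CPM in OLs, no OL library reached an OPC library, and the log2 fold change was -1.16 ± 0.37 (edgeR adjusted p = 0.0332). The difference between both changes was 0.75 ± 0.62 on the log2 scale (interval -0.47 to 1.961, edgeR adjusted p = 0.947) and did not pass the test. The call of Sema3f in UT cells held in only 2 of 8 fits that left out 1 library. It was lost without replicate 3 in both stages (-0.91 ± 0.40), and the UT OL libraries held only 17 to 36 counts of the gene. Sema3f had the lowest level per kilobase of the members in OPCs, and 166 of its exonic bases overlap another gene, where reads could be assigned to either.

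All 4 semaphorin receptors were called lower in OLs in both comparisons, where 22.8% of all genes were under DTG and 13.4% in UT cells. The members were chosen for this direction in DMSO-treated cells, so the share over all genes is not the one expected of them. Nrp2, the neuropilin that binds Sema3f and Sema3c, was at 23.8, 50.9, 60.0 and 39.3 CPM in DTG-treated OPCs and 10.5, 6.10, 5.76 and 10.3 CPM in OLs, and at 19.3, 40.1, 45.5 and 25.6 CPM in UT OPCs and 5.03, 5.71, 4.00 and 13.0 CPM in UT OLs. The stages lay apart in both, and the log2 fold change was -2.41 ± 0.31 under DTG (edgeR adjusted p = 7.94e-05) and -2.23 ± 0.42 in UT cells (edgeR adjusted p = 0.00316). Plxna2, a plexin that works with neuropilins, was at 201, 171, 194 and 177 CPM in DTG-treated OPCs and 34.9, 44.9, 65.2 and 58.9 CPM in OLs. In UT cells Plxna2 was at 186, 148, 181 and 128 CPM in OPCs and 42.1, 50.9, 38.3 and 64.0 CPM in OLs. No library of 1 stage came near the other, and with -1.87 ± 0.20 and -1.73 ± 0.21 on the log2 scale Plxna2 had small errors (edgeR adjusted p = 2.16e-05 under DTG and 0.000266 in UT cells).

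The plexin Plxnc1, a receptor for a membrane-anchored semaphorin, ranged from 11.2 to 52.0 CPM in OPCs and 4.23 to 11.05 CPM in OLs, with log2 fold changes of -2.05 ± 0.27 under DTG and -2.07 ± 0.37 in UT cells. Plxna4, a receptor chain for Sema3a, was weaker, from 4.11 to 11.9 CPM in OPCs and 0.920 to 4.25 CPM in OLs, and 1 UT OL library exceeded the lowest of the OPC libraries. The 11.9 CPM is UT replicate 3, where the exon length of Plxna4 is 2.28 times that in the other files. Per kilobase Plxna4 was at 1.16, 0.945, 0.918 and 0.871 CPM in UT OPCs of replicates 1 to 4. It changed by -1.67 ± 0.30 under DTG and -1.16 ± 0.37 in UT cells. In UT cells its call was lost without replicate 3 (-0.81 ± 0.31), and also without OPC replicate 1 or without OL replicate 2, 3 or 4 alone.

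In the ephrin system the receptor Epha2 fell most. It was at 7.70, 17.4, 22.5 and 11.9 CPM in DTG-treated OPCs and 4.51, 3.09, 3.27 and 3.12 CPM in OLs, and at 7.10, 24.1, 17.9 and 10.7 CPM in UT OPCs and 1.77, 2.51, 3.24 and 2.64 CPM in UT OLs. The OPC libraries of replicate 1 were the lowest, and all OL libraries lay below them, with log2 fold changes of -2.09 ± 0.35 (edgeR adjusted p = 0.000402) and -2.56 ± 0.42 (edgeR adjusted p = 0.00131). Epha5, a receptor of the same family with a mainly neuronal role, was at 12.5, 14.8, 25.9 and 10.7 CPM in UT OPCs and 6.87, 12.3, 7.65 and 8.72 CPM in UT OLs, where the stages overlapped and the change of -0.87 ± 0.33 did not pass (edgeR adjusted p = 0.0644). Under DTG it was at 21.5, 35.7, 24.3 and 15.4 CPM in OPCs and 7.10, 9.37, 11.1 and 11.4 CPM in OLs, with a change of -1.32 ± 0.28 that did (edgeR adjusted p = 0.00180). The difference between the changes, -0.45 ± 0.44, was not significant (interval -1.32 to 0.41). Efnb2, a transmembrane ephrin ligand, was at 23.5, 14.8, 13.7 and 11.4 CPM in DTG-treated OPCs and 4.81, 6.64, 5.45 and 2.81 CPM in OLs and changed by -1.72 ± 0.32. Without replicate 3, where it can be tested in UT cells, it changed by -1.22 ± 0.30 and was called.

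Robo2, a receptor that repels growth cones from Slit, and the netrin Ntn4, a protein of basement membranes related to laminin, were called lower in both comparisons. Robo2 ranged from 13.4 to 30.9 CPM in OPCs and 4.94 to 13.4 CPM in OLs and changed by -1.65 ± 0.25 under DTG and -1.13 ± 0.34 in UT cells, and the latter was not called without replicate 3 (-0.70 ± 0.26). Ntn4 ranged from 20.2 to 46.8 CPM in OPCs and 5.27 to 18.8 CPM in OLs, and it kept the highest level per kilobase in OLs, with changes of -1.19 ± 0.20 and -1.45 ± 0.37. The leucine-rich repeat proteins Slitrk1 and Slitrk2, which organise synapses in neurons, changed by -1.41 ± 0.25 and -1.72 ± 0.27 under DTG and by -1.12 ± 0.30 and -1.22 ± 0.34 in UT cells. In UT cells the call of Slitrk2 held in 5 of 8 fits that left out 1 library, and that of Slitrk1 in 7 of 8. Without replicate 3 in both stages Slitrk2 changed by -0.87 ± 0.22 and was not called. Slitrk1 was among the members whose OPC libraries differed least, from 21.9 to 34.2 CPM over all 12, and Slitrk2 ranged from 11.98 to 50.7 CPM. The 21.9 and the 50.7 CPM are both UT replicate 3, where exon lengths are 0.64 times (Slitrk1) and 2.98 times (Slitrk2) those in the other files. Per kilobase, UT OPCs of replicates 1 to 4 were at 7.05, 7.82, 8.47 and 6.89 CPM for Slitrk1. For Slitrk2 they were at 8.80, 7.05, 5.77 and 6.11 CPM per kilobase.

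All 5 cadherin-type genes were called lower under DTG and 4 of 5 in UT cells, where 22.8% and 13.4% of all genes were. As with the receptors, the direction was known from the choice of members, so these counts are no trait of the family. Cdh23, a long cadherin of the tip links of hair cells, was at 31.7, 23.9, 26.7 and 30.3 CPM in DTG-treated OPCs and 7.87, 5.10, 9.97 and 7.86 CPM in OLs. In UT cells it was at 33.4, 33.3, 36.1 and 25.8 CPM in OPCs and 6.73, 4.06, 9.64 and 9.46 CPM in OLs. The OPC libraries lay close together and far above the OLs, with log2 fold changes of -1.87 ± 0.23 (edgeR adjusted p = 5.06e-05) and -2.11 ± 0.29 (edgeR adjusted p = 0.000549). Among the protocadherins, adhesion molecules best known from neurons, Pcdh19 was at 15.8, 10.99, 10.4 and 10.0 CPM in DTG-treated OPCs and 2.83, 2.46, 1.63 and 4.18 CPM in OLs and changed by -2.07 ± 0.30, against -1.23 ± 0.27 in UT cells. Pcdh18 and Pcdh20 changed by -1.66 ± 0.29 and -1.66 ± 0.32 under DTG and by -1.37 ± 0.29 and -1.05 ± 0.30 in UT cells. The call of Pcdh20 in UT cells held in 4 of 8 fits that left out 1 library, and that of Pcdh18 in all 8. Without replicate 3 in both stages Pcdh20 changed by -0.67 ± 0.24 and was not called. Pcdhb11 was at 9.99, 4.21, 14.2 and 7.08 CPM in UT OPCs and 6.09, 3.63, 4.55 and 4.99 CPM in UT OLs, where the stages overlapped and the change of -0.89 ± 0.38 was not called (edgeR adjusted p = 0.0919), and it changed by -1.39 ± 0.26 under DTG. It belongs to a cluster of similar genes, so its reads may be shared with them.

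**Figure D3:**
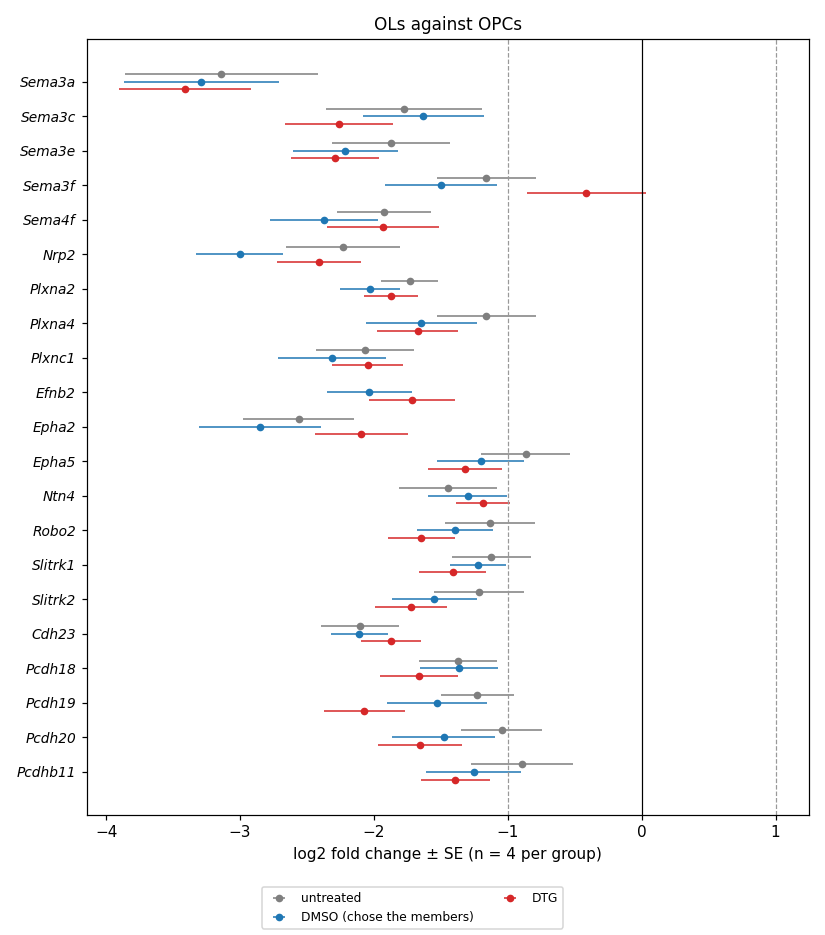
Log2 fold change of OLs against OPCs (x axis, bars are SE, n = 4 per group) for each member in untreated, DMSO-treated and DTG-treated cells, with dashed lines at an absolute change of 1. The DMSO points chose the members, Sema3a lies farthest left at -3.41 under DTG, and Sema3f under DTG lies nearest 0 at -0.41.

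The calls under DTG did not rest on single libraries. Without the library labelled OPC replicate 2, 20 of 21 members were called and the median was -1.75, and leaving out any other single library also left 20 called. In UT cells between 12 and 19 of 20 members were called when 1 library was left out, and 12 were left without OPC replicate 3 and also without OL replicate 3. Without OPC replicate 3 the calls of Plxna4, Sema3c, Slitrk2, Sema3f, Pcdh20 and Robo2 were lost, and without OL replicate 3 those of Plxna4, Sema3c, Sema3f, Pcdh20, Robo2 and Slitrk1. Sema3c and Sema3f lost their call also without any other single OL library. Without replicate 3 in both stages 13 of 21 members were called lower, where 11.9% of genes were, and all 21 had a negative change. Scaling to ERCC transcripts, synthetic RNA added by the authors, shifts the values of all genes down in OLs (median log2 fold change -1.36 under DTG and -1.002 in UT cells), and under it all members were called lower in both comparisons, where 61.0% of genes were under DTG and 30.9% in UT cells.

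Markers of other cells are given beside these changes. Those with a symbol here come from the same list of genes lower in DMSO-treated OLs, so their direction was fixed by that choice. The 4 neuronal markers of 7 with an identifier, Snap25, Stmn2, Dcx and Map2, summed to 184 to 653 CPM in OPC libraries and 94.0 to 209 CPM in OL libraries. The mural and fibroblast list has only Acta2 of 7, at 7.18 to 73.7 CPM in OPCs and 0.276 to 1.42 CPM in OLs, the astrocyte list only Sox9 of 8, at 196 to 304 and 78.4 to 137 CPM, and the microglial list only Cd68 of 8, at 0.955 to 3.25 and 0.0865 to 0.637 CPM. None of the 5 endothelial markers has an identifier with a symbol here. Their part in the members' changes was not tested.

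In DMSO-treated cells, the contrast behind the list, all 21 members were lower in OLs and called, where 18.5% of genes were called lower. The log2 fold changes ran from -3.29 ± 0.58 for Sema3a, -3.00 ± 0.32 for Nrp2 and -2.85 ± 0.45 for Epha2 to -1.22 ± 0.21 for Slitrk1 and -1.20 ± 0.33 for Epha5. The last pair lies just inside the threshold of 1 on the log2 scale, and genes just outside carry no symbol in the sources used here. Nothing is read from these values, since they chose the members.

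The study asked how DTG affects OPCs and OLs. Against UT cells, which share no library with the choice of members, no member was called at either stage. The labels give no DMSO content for DTG-treated cells. Comparisons of DTG-treated with UT cells, and the interaction below, therefore cannot tell the drug from its solvent. In OPCs 0 of 20 members were called, where 0% of 12269 genes were, 0 had an unadjusted p-value under 0.05, as 1.4997% of all genes had, and DESeq2 called 0. The members' median log2 fold change was 0.21 with DTG, and 16 of 20 were positive. Over all genes the median was -0.03, and 54.1% were negative. The median was 0.13 without the library labelled DTG replicate 2 and 0.48 without replicate 3 in both groups. Without replicate 3, 5 of 21 members had an unadjusted p-value under 0.05, against 7.12% of all genes, and without UT replicate 3 alone 6 of 21, against 13.1%. The 5, none called, were Sema3a with 1.28 ± 0.53, Sema3c with 1.30 ± 0.49, Epha5 with 1.00 ± 0.35, Slitrk2 with 0.78 ± 0.34 and Robo2 with 0.73 ± 0.26 (edgeR adjusted p = 0.656 each). Leaving out replicate 3 keeps the library labelled DTG replicate 2, which deviated with replicate 3. That library was the highest DTG-treated OPC library for all 5. When it alone was left out, 0 of 20 members had an unadjusted p-value under 0.05, against 0.566% of all genes. With all libraries the members with the smallest p-values were Epha5 with 0.59 ± 0.35 (interval -0.10 to 1.28), Pcdh20 with 0.47 ± 0.33 (-0.18 to 1.12) and Slitrk1 with 0.20 ± 0.16 (-0.12 to 0.52). The intervals are wide for the ligands that varied between litters, as for Sema3c with -0.85 to 1.68.

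In OLs 0 of 20 members were called with DTG against UT, where 0.277% of 11909 genes were, 1 had an unadjusted p-value under 0.05, as 12.2% of all genes had, and DESeq2 called 0. That member was Sema3f, with 0.78 ± 0.29 on the log2 scale (interval 0.21 to 1.36, edgeR adjusted p = 0.336) and the values in the libraries given above, where 3 of 4 DTG-treated OL libraries exceeded every UT library. Without replicate 3 it changed by 0.55 ± 0.35 and no member had an unadjusted p-value under 0.05. Pcdh19 with -0.63 ± 0.30 and Plxna4 with -0.63 ± 0.30 had the next smallest p-values and were lower (edgeR adjusted p = 0.437 and 0.443). The median over the members was -0.08, or -0.14 without replicate 3. The OL markers, which have a symbol here only because they differed between DMSO-treated and DTG-treated OLs, summed to 6975, 10303, 9563 and 4079 CPM in UT and 2554, 4459.5, 4559.8 and 1806 CPM in DTG-treated OLs of replicates 1 to 4.

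**Figure D4:**
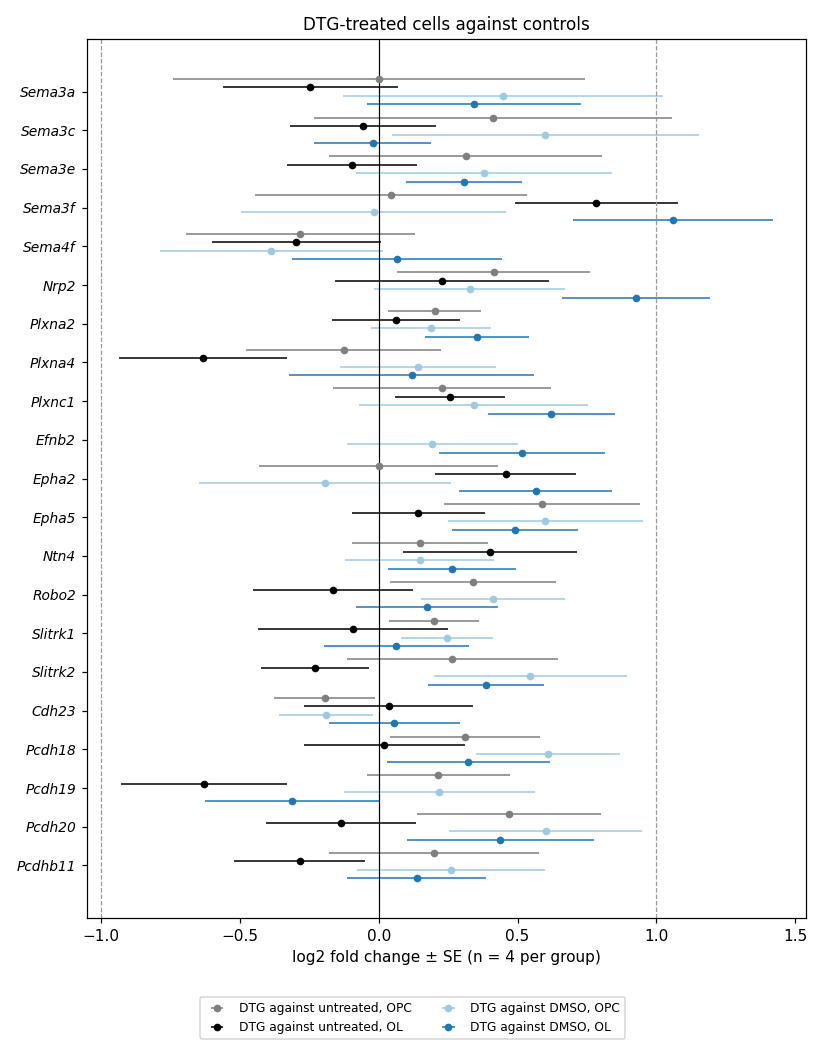
Log2 fold change of DTG-treated cells against untreated and against DMSO-treated cells at each stage (x axis, bars are SE, n = 4 per group), with dashed lines at an absolute change of 1. No member passed the test in any of these comparisons, and Sema3f in OLs lies farthest right, at 0.78 against untreated and 1.06 against DMSO-treated cells.

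Against DMSO the values are a description, since the DMSO libraries chose the members for being low in OLs and high in OPCs. In OPCs 0 of 21 members were called (0% of genes), 1 had an unadjusted p-value under 0.05, as 0.520% of all genes had, and DESeq2 called 0. The median over the members in OPCs was 0.26, or 0.23 without the library labelled DTG replicate 2, where 0 of 21 had such a p-value. In OLs 0 of 21 members were called, where 0.582% of 12710 genes were, 4 had an unadjusted p-value under 0.05, as 12.9% of all genes had, and DESeq2 called 0. In OLs Nrp2 was at 4.64, 4.00, 3.35 and 5.24 CPM with DMSO and 10.5, 6.10, 5.76 and 10.3 CPM with DTG, every DTG library above every DMSO library, a change of 0.93 ± 0.27. Sema3f changed by 1.06 ± 0.36, from 1.72, 0.604, 1.255 and 1.98 CPM with DMSO, and Plxnc1 by 0.62 ± 0.23. In OPCs the smallest p-value was that of Pcdh18, at 5.45, 3.47, 5.11 and 4.34 CPM with DMSO and 7.91, 8.82, 5.87 and 5.48 CPM with DTG, without overlap. Against UT, which those libraries did not choose, Nrp2 in OLs changed by 0.23 ± 0.39 and Pcdh18 in OPCs by 0.31 ± 0.27. Comparisons against DMSO and against UT share the DTG libraries.

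The vehicle alone was compared with UT cells as well. No member was called at either stage, where 0% of genes were, 0 of 20 in OPCs and 1 of 20 in OLs had an unadjusted p-value under 0.05, as 0.599% and 7.49% of all genes had, and DESeq2 called 0. The member in OLs was Slitrk2, with a change of -0.66 ± 0.19. In OLs 19 of 20 changes were negative with a median of -0.38, and in OPCs 13 of 20 with a median of -0.05. Over all genes 55.2% were negative in OLs, with a median of -0.04, and 47.1% in OPCs, with a median of 0.01. Without replicate 3 the medians were -0.46 and 0.03, no member was called, and 3 of 21 members in OLs, but not Slitrk2, had an unadjusted p-value under 0.05, against 5.91% of all genes. The low values of OLs with DMSO are those the members were chosen by.

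Whether the change on differentiation itself differed between DTG and UT cells was tested as an interaction over 16 libraries. No member was called (0% of 12679 genes), 1 had an unadjusted p-value under 0.05, as 3.88% of all genes had, and DESeq2 called 0. The members' median was -0.29, or -0.63 without replicate 3 and -0.19 without the library labelled DTG-treated OPC replicate 2. The fit without replicate 3 keeps that OPC library, which deviated with replicate 3. With all libraries the median over all genes was 0.03. An unadjusted p-value under 0.05 was reached by 1 of 21 members without replicate 3, against 11.6% of all genes, by 7 of 21 without the UT libraries of replicate 3 alone, against 20.1%, and by 0 of 20 without that OPC library, against 2.49%, and none was called. With all libraries Pcdh19 had the smallest p-value, with -0.85 ± 0.39 on the log2 scale (interval -1.62 to -0.09, edgeR adjusted p = 0.947), followed by Pcdh20 with -0.61 ± 0.44 (-1.47 to 0.25) and Robo2 with -0.51 ± 0.42 (-1.34 to 0.32). A missed threshold does not show that the changes were alike.

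Levels in OPCs were also compared between replicate numbers, that is between litters. In a test over the 12 OPC libraries, added after the values were seen, 13 of 20 members had an edgeR adjusted p-value under 0.05, where 54.5% of all genes did, and a share near that of all genes is no result about the members. The 7 that did not pass were Cdh23, Slitrk1, Pcdh18, Robo2, Plxna4, Pcdh20 and Pcdhb11. The summed level of the 5 semaphorins was 49.1, 62.2, 206 and 68.5 CPM in UT, 56.0, 69.0, 173 and 55.5 CPM in DMSO-treated and 68.8, 169.6, 149 and 72.0 CPM in DTG-treated OPCs of replicates 1 to 4. Replicate 3 stood highest in UT and DMSO-treated OPCs, and the library labelled DTG replicate 2 exceeded DTG replicate 3. Sema3c was at 8.60, 10.5, 47.7 and 10.3 CPM in UT, 11.9, 11.5, 38.3 and 7.13 CPM in DMSO-treated and 18.8, 40.2, 35.8 and 9.97 CPM in DTG-treated OPCs, and in OLs of the same replicates it was at 4.25, 8.30, 4.41 and 6.02 CPM in UT cells. In those OLs replicate 3 was not the highest.

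In the same test over the OLs 1 of 20 members passed, where 13.1% of all genes did. Leaving out the library labelled DTG replicate 2 gave 17 of 20 members in OPCs, where 69.0% of all genes passed, and leaving out UT replicate 3 gave 12 of 21, where 45.3% did. The widest gaps between the highest and lowest replicate were those of Sema3a (2.38 on the log2 scale, edgeR adjusted p = 0.0161), Sema3c (2.16, edgeR adjusted p = 0.00929) and Sema3e (1.82, edgeR adjusted p = 0.00589), each highest in replicate 3. Epha2 was lowest in replicate 1 and highest in replicate 2 (1.62, edgeR adjusted p = 0.00150), and Nrp2 was lowest in replicate 1 (1.27, edgeR adjusted p = 0.000907). Slitrk1 and Cdh23 differed least, by 0.18 and 0.23 (edgeR adjusted p = 0.677 and 0.493).

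The ligands with the widest gaps lie on the same chromosome. In build Rnor_6.0, named in the submitters' processing notes, Sema3c lies at chr4:14318274-14490446 on the minus strand, Sema3e at chr4:17272511-17594598 on the minus strand and Sema3a at chr4:18178656-18396035 on the minus strand, within 4078 kilobases. The gap between Sema3c and Sema3e is 2782 kilobases and that between Sema3e and Sema3a 584 kilobases. Other values moved with these litter differences: the neuronal markers summed to 376, 184, 499.6 and 279 CPM in UT, 461, 229.9, 546 and 248 CPM in DMSO-treated and 552, 653, 389 and 304 CPM in DTG-treated OPCs of replicates 1 to 4, and Acta2 was at 73.7, 7.18, 16.9 and 56.2 CPM in UT OPCs. Neuronal markers were highest where the summed semaphorins were, in replicate 3 of UT and DMSO-treated OPCs and in the library labelled DTG replicate 2, and next highest in replicate 1 of all treatments, where the semaphorins were not. Their part in the litter differences was not tested.

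**Figure D5:**
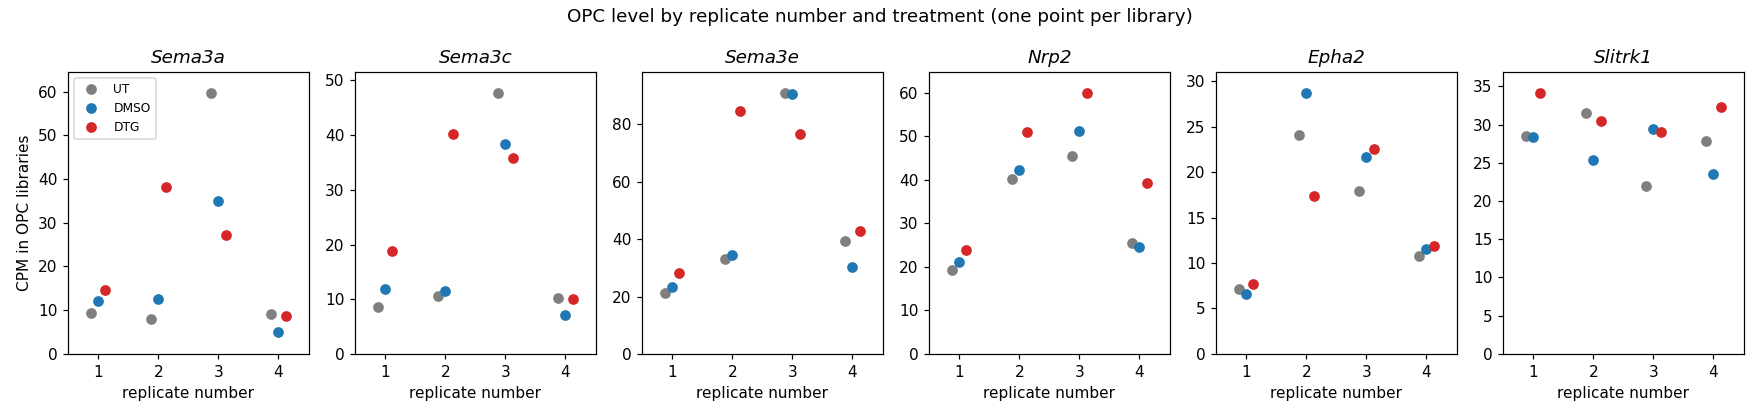
Level in each OPC library (y axis, CPM) by replicate number, coloured by treatment, for 3 semaphorins of chromosome 4, Nrp2, Epha2 and Slitrk1, one point per library. Sema3a, Sema3c and Sema3e are high in replicate 3 and in the library labelled DTG replicate 2 (38.1, 40.2 and 84.8 CPM), and Slitrk1 is nearly level.

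Of a list of 50 genes that act beneath these receptors or beside them, 10 have an identifier with a symbol, and they come from the same list of genes lower in DMSO-treated OLs, so their direction was fixed too. Under DTG 10 of 10 were called lower and without treatment 8 of 10, where 22.8% and 13.4% of all genes were. With the drug against UT 0 of 10 were called in OPCs and in OLs, where 0% and 0.277% of all genes were. The netrin receptor Dcc changed by -1.83 ± 0.25 under DTG and -1.12 ± 0.35 in UT cells, the adhesion protein L1cam by -2.07 ± 0.50 and -1.68 ± 0.37, and Flrt3, a membrane protein that binds Robo and Unc5 receptors, by -2.38 ± 0.28 and -1.98 ± 0.30. The kinase Pak1, which acts on actin below Rac, changed by -1.08 ± 0.21 and -1.28 ± 0.21, and the exchange factors Tiam1 and Vav3 by -1.39 ± 0.25 and -1.74 ± 0.40 under DTG. The protease Adam10, which cuts ephrins and cadherins, and the Wnt co-receptor Lrp6 were not called in UT cells, with -0.83 ± 0.46 and -0.70 ± 0.28. Most partners of the members, among them Nrp1, Slit ligands and other plexins, have no identifier with a symbol in the sources used here and were not analysed here.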

How the data were processed

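RNA was measured by poly(A) RNA sequencing in 24 libraries, and the deposited values are whole-number counts of reads per gene. Per the submitters' processing notes and the study's methods, the authors used bcl2fastq 2.20, STAR 2.5.2b and featureCounts of Subread 1.5.2 with build Rnor_6.0, counting unique reads in exons; the strand setting is not given in the sources used here, so reads of overlapping genes on opposite strands may be shared. Exon lengths come from the same deposited count files. The UT files of replicate 3 list 30560 identifiers of another annotation, and comparisons with UT cells used the 21651 shared ones. The last gene position on chromosome 1 is 260398790 in these 2 files and 282724300 in the 22 others. These 2 files therefore appear to be on another genome build, which the sources used here do not name.

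Groups follow the labels. Counts were filtered with filterByExpr, scaled with TMM without the ERCC rows and tested with the quasi-likelihood test of edgeR 4.0.16 in R 4.3.3, each comparison fitted on its own groups, with Benjamini-Hochberg adjustment over all genes tested; SE is the absolute log2 fold change over the square root of F. DESeq2 1.42.0, its size factors, ERCC scaling, no filter, no minimum fold, a replicate block and leaving out libraries were alternatives. The members and lists were chosen with earlier results of these data known. Genes were named by role, and in drug comparisons the called members or else the 3 with the smallest p-values; others named beside them were chosen after their values were seen. The fits were tested on simulated data. The spread measures differences between litters. Total counts per library of 13241279 to 18499994 set the counting precision. Intervals are the log2 fold change ± 1.96 SE, nominal 95% intervals from a normal quantile. That quantile takes no account of the degrees of freedom of the quasi-likelihood test, so the intervals are narrower than the test implies. An interval can therefore exclude no change where the unadjusted p-value of that test is not under 0.05.

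Same-numbered libraries share a culture code in their library names, which is where the pairing comes from. Deviations from the group means correlated between same-numbered OPC libraries with r from 0.58 to 0.77 for UT and DMSO. Between DTG-treated and UT OPCs r ran from -0.23 to 0.71 and between DTG-treated and DMSO-treated OPCs from -0.16 to 0.87, lowest for the library labelled DTG replicate 2. In OLs r ran from -0.04 to 0.51, and between the stages of the same treatment from -0.41 to 0.61. The values thus do not bear out the pairing by number in every pair.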

Additional observations from a re-analysis of the deposited data

Results flagged for a closer look

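Among 124 sets of 4 libraries, 1 gene in 1 condition each, 10 held a library whose gap to its nearest neighbour passed Dixon's 95% critical value, and chance alone flags about 1 set in 20. 5 of the 10 were the semaphorins of replicate 3 OPCs or Epha5 there. Sema3a in UT OPCs reached 59.7 CPM, with 9.24 CPM the next, Sema3c in UT OPCs 47.7 CPM, with 10.5 CPM the next, and Sema3c in DMSO-treated OPCs 38.3 CPM, with 11.9 CPM the next. Sema3e in DMSO-treated OPCs reached 90.6 CPM, with 34.6 CPM the next, and Epha5 in the same library 27.6 CPM, with 13.5 CPM the next. In replicate 1 of the DTG-treated OPCs Plxna4 reached 9.44 CPM, with 5.99 CPM the next, and Pcdh19 15.8 CPM, with 10.99 CPM the next. In OLs the high values were those of Plxna4 in DMSO replicate 1 (4.07 CPM, with 1.44 CPM the next), Sema3e in DMSO replicate 2 (12.8 CPM, with 9.004 CPM the next) and Epha2 in DTG replicate 1 (4.51 CPM, with 3.27 CPM the next). UT replicate 3 was counted on another annotation, and apparently another genome build, than the libraries it is set beside.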

How the results depend on the processing

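Over the settings run, 20 or 21 of 21 members were called in DTG-treated differentiation, and in UT differentiation 17 (DESeq2, which gave Sema3a no adjusted p-value) to 20 (scaling to ERCC counts) of 20, 13 of 21 without replicate 3 and 12 to 19 of 20 without 1 library. With the replicate number as a block the members called were 18 of 20 in UT and 20 of 21 in DTG-treated differentiation and 0 in each drug, vehicle and interaction comparison, so the block changed no call of a member. In OLs the block raised the genes called with DTG from 74 to 173 against DMSO and from 33 to 107 against UT. Replicate number in OLs passed for 2 members without UT replicate 3 (17.1% of all genes) in place of 1 (13.1%). Sema3f under DTG, not called, ranged from -0.71 to 0.038 when 1 library was left out and turned positive without OPC replicate 3, and it was called with scaling to ERCC counts (-1.75), as were Epha5 (-1.97) and Pcdhb11 (-1.88) in UT cells. Counts over all genes that moved by over 1.5 times were, with no minimum fold change, 4552 for 3030 in UT, 8255 for 5170 in DTG and 6941 for 4245 in DMSO differentiation, and 112 for 74 with DTG against DMSO in OLs; with ERCC scaling 8526 in DTG and 6962 in DMSO differentiation, 19 with DTG against DMSO and 63 for 0 with DMSO against UT in OLs; with DESeq2 128 with DTG against DMSO, 107 with DTG against UT in OLs and 11 for 0 in the interaction; and 10 with DTG against UT in OLs without replicate 3. Leaving out 1 library gave 28 to 94 genes with DTG against DMSO in OLs (28 without DMSO replicate 2) and 5 to 41 with DTG against UT in OLs (5 without DTG replicate 1, 6 without DTG replicate 3 or UT replicate 1, 7 without UT replicate 2, 11 without DTG replicate 2, 15 without UT replicate 4 and 18 without DTG replicate 4). ERCC scaling moved the share of lower calls to 90.8% in UT, 94.3% in DTG and 96.2% in DMSO differentiation, from 53.7%, 58.2% and 56.9%, to 68.2% from 27.3% with DTG against UT in OLs, and to 0% from 36.5% with DTG against DMSO in OLs. The cause of these movements was not tested.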
